A study of Drosophila melanogaster with 15 samples.

Results

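Antimicrobial peptide genes encode short secreted proteins that kill microbes, and 7 of them were read here across all groups of a larval infection experiment in Drosophila melanogaster: DptB, AttD, CecB, Def, Mtk, Drs and Listericin. They were chosen by symbol, with earlier results of these data known. Each of the 7 was named as the only gene of exactly 1 probe set in the platform annotation, so 7 of 13966 non-control probe sets are described. The study asked how the response to a Gram-negative bacterium changes in larvae of the third instar mutant for Relish, Dif or dorsal, which are transcription factors of the NF-kappaB family. Each larva received about 0.1 microliter by injection, and RNA was extracted from pools of 20 larvae after 2 h. The 5 groups had 3 arrays each: wild type with phosphate buffered saline (PBS), wild type with Escherichia coli suspended in PBS, and Relish E20, Dif1 and Dorsal1 mutant larvae with E. coli. Sex, the wild type strain and whether the mutants were homozygous are not given in the sources used here. Mutant larvae with PBS were not analysed here. Whether a mutant stock differs from wild type already without bacteria therefore cannot be told apart from a changed response.

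Microbes activate these genes through a pair of pathways. In the Imd pathway, peptidoglycan of Gram-negative bacteria is bound by receptors such as PGRP-LC, and the signal ends with cleavage of Relish, which enters the nucleus of fat body cells and switches on peptide genes. In the Toll pathway, fungi and many Gram-positive bacteria activate the ligand Spätzle, and the signal ends with release of Dif and dorsal from the inhibitor Cactus. DptB, a diptericin, AttD, of the attacin family, and CecB, a cecropin, are peptides best known for action on Gram-negative bacteria. Def, the insect defensin, acts mainly on Gram-positive bacteria, Mtk (metchnikowin) on fungi and Gram-positive bacteria, and Drs (drosomycin) on fungi. Drs is the textbook Toll target. Listericin is a peptide gene linked to intracellular recognition by PGRP-LE and to JAK-STAT signalling.

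Before any result, a conflict in the labels has to be stated. For all 9 mutant arrays the treatment text names E. coli, whereas their titles carry the same control abbreviation as the PBS arrays. The text of the Dif mutant arrays also calls the injected animals controls. The treatment text was followed, and every direction below that involves a mutant rests on it. The Rel transcript was low where the label says Relish mutant. It read 18.9, 11.4 and 27.4 signal units in the Relish mutant against 3095.2 to 4980.7 after E. coli in wild type, without overlap. The Dif and dl transcripts did not pass in their own mutants (limma adjusted p = 0.761 and 0.547), so these labels were not checked by a transcript. Signals are MAS 5.0 values on a linear scale, given with SD and n = 3 where a mean is printed. Differences are on the log2(signal + 80) scale, and 80 is the pseudocount. The limma test covered 11427 probe sets, the threshold was 0.05 on the adjusted p, and all 7 peptide genes were among those tested, also if the wild type E. coli arrays are left out of the filter on low signal. Fewer fat body cells and less RNA per cell cannot be told apart in whole larvae.

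**Figure D1:**
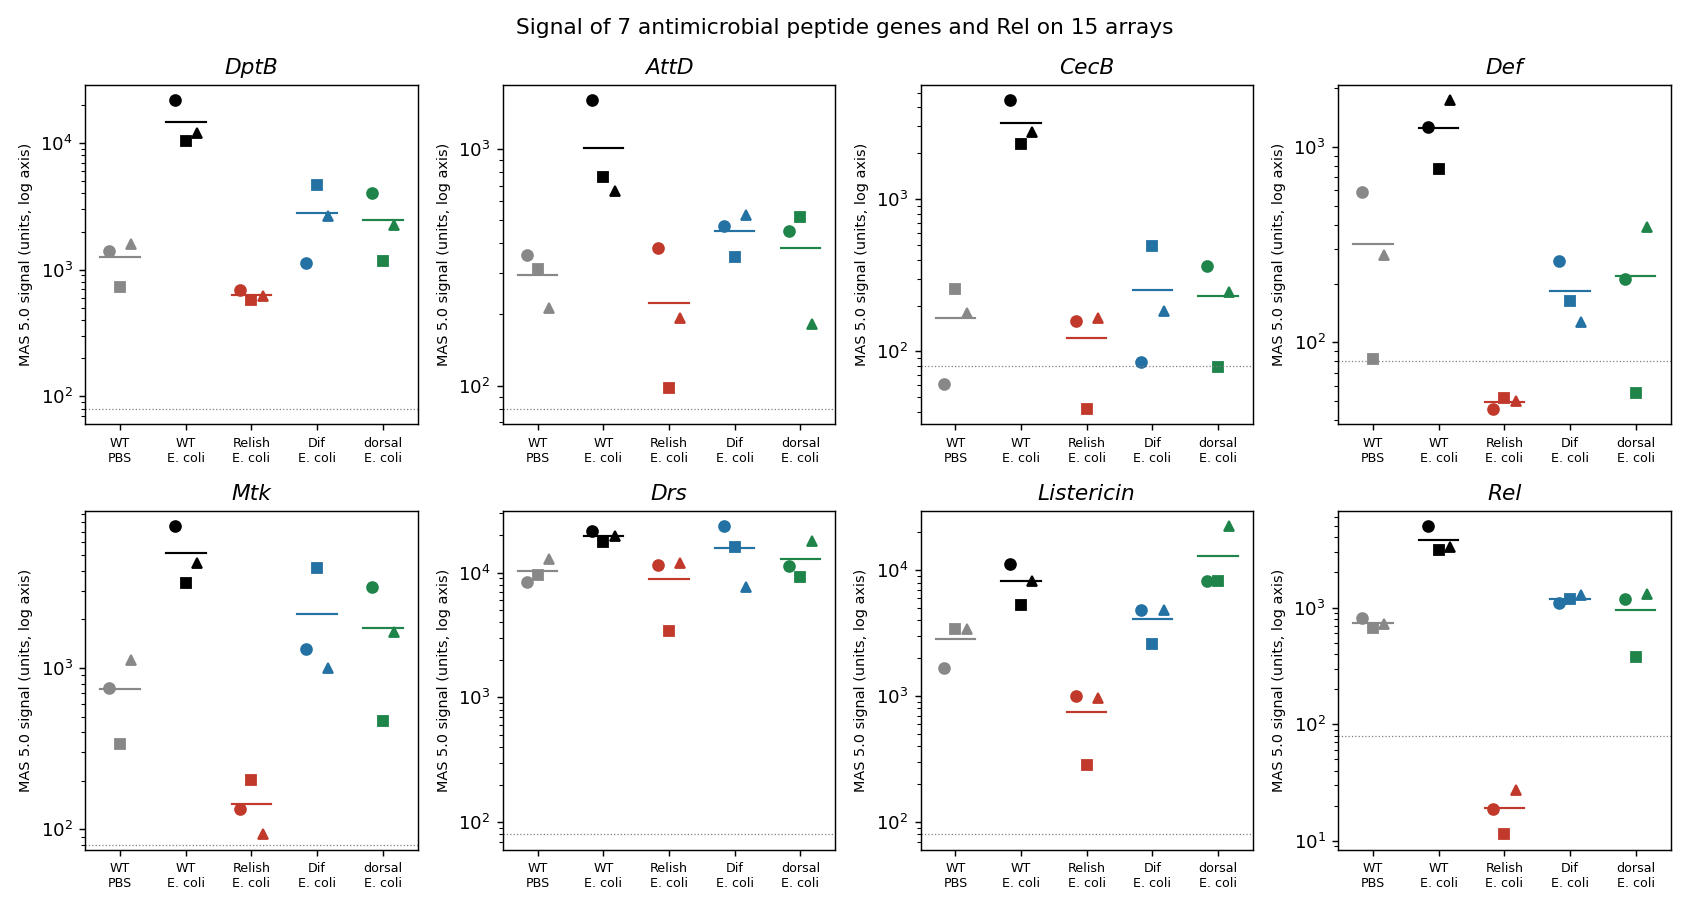
MAS 5.0 signal (log axis, signal units) of the 7 peptide genes and of Rel on each of the 15 arrays by group. Circles, squares and triangles are replicates 1, 2 and 3, bars are group means (n = 3) and the dotted line is the pseudocount of 80. All 3 wild type E. coli arrays lie above all 3 wild type PBS arrays in every panel, and the Relish mutant arrays are the lowest group by mean in every panel.

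DptB rose with bacteria in wild type and fell in all 3 mutants. The wild type arrays gave 1401.9, 734.5 and 1609.7 units after PBS and 21730.6, 10452.4 and 11941.7 after E. coli. DptB read 692.0, 579.3 and 616.9 in the Relish mutant, each value below every wild type PBS array. The Dif mutant arrays read 1139.1, 4657.9 and 2649.2, and the dorsal mutant arrays 4045.5, 1180.2 and 2242.3. Both of these groups overlapped with wild type PBS and lay wholly below wild type with E. coli. The mean was 14708 ± 6127 with bacteria against 1249 ± 457 with PBS in wild type, 11.8 times as high, and the log2 difference of 3.47 (SE 0.45, adjusted p = 0.00155) passed. Against wild type with E. coli the log2 difference was -4.31 in the Relish mutant (adjusted p = 3.67e-05), -2.48 in the Dif mutant (adjusted p = 0.00536) and -2.61 in the dorsal mutant (adjusted p = 0.00320). These 4 calls held without each of the 15 arrays in turn.

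CecB rose with bacteria in wild type and also fell in all 3 mutants. After PBS its wild type signals were 61.3, 256.3 and 179.7, and after E. coli 4454.2, 2288.1 and 2749.9. The Relish mutant read 159.1, 42.1 and 165.9, the Dif mutant 85.1, 489.8 and 184.4, and the dorsal mutant 364.0, 78.8 and 247.2. All 3 mutant groups overlapped with wild type PBS, and none reached the lowest wild type E. coli array. Mean signal was 19.1 times as high with bacteria as with PBS in wild type, and CecB passed at 3.76 on the log2 scale (SE 0.50, adjusted p = 0.00155). The mutants differed from wild type with E. coli by -4.02 (Relish, adjusted p = 1.28e-04), -3.42 (Dif, adjusted p = 7.29e-04) and -3.45 (dorsal, adjusted p = 7.35e-04). These calls too held without each array in turn. Cecropin genes are close copies of each other, so which cecropin gives this signal is uncertain.

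AttD, an attacin that lacks the secretion signal of its relatives, was called lower in the Relish mutant and in no other comparison. Wild type arrays gave 357.9, 311.5 and 212.9 after PBS against 1603.3, 764.5 and 665.8 after E. coli. The Relish mutant read 381.6, 98.1 and 193.3, the Dif mutant 474.0, 350.3 and 526.2, and the dorsal mutant 450.6, 513.3 and 181.8. Each mutant array lay below each wild type E. coli array. In wild type the log2 difference between E. coli and PBS was 1.47 and missed the threshold (SE 0.41, adjusted p = 0.359). The difference was -1.85 in the Relish mutant (SE 0.41, adjusted p = 0.0233), whereas it was -0.96 (adjusted p = 0.260) in the Dif mutant and -1.23 (adjusted p = 0.127) in the dorsal mutant. The Relish call was lost without Relish mutant replicate 2 (-1.52, adjusted p = 0.115) or 3 (-1.83, adjusted p = 0.0674) and likewise when replicate 1 (-1.49, adjusted p = 0.125) or 2 (-1.99, adjusted p = 0.0510) of wild type with E. coli was left out. It was also lost after averaging the arrays of a group that share a title number (-2.03, adjusted p = 0.0670) and with no other groups in the fit (-1.85, adjusted p = 0.0599).

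Def, the defensin gene, fell in all 3 mutants, and its Relish mutant arrays lay close together at 45.8, 51.8 and 50.1. All 3 are below the pseudocount, where these signals do not tell a low transcript from none. Wild type read 590.1, 82.3 and 279.8 with PBS and 1262.8, 770.8 and 1732.5 with E. coli. The PBS arrays differed among themselves 7.17-fold, and the log2 difference of 1.91 (SE 0.50, adjusted p = 0.251) was not called. The Dif mutant read 259.4, 163.2 and 127.3, and the dorsal mutant 210.6, 55.3 and 389.4. All mutant arrays were below all wild type arrays with E. coli. The difference from wild type with E. coli was -3.30 in the Relish mutant (adjusted p = 0.00109), and this call held without each array. It was -2.31 in the Dif mutant (adjusted p = 0.0185) and -2.27 in the dorsal mutant (adjusted p = 0.0180). The Dif call was lost when Dif mutant replicate 2 (-2.26, adjusted p = 0.0596) or 3 (-2.15, adjusted p = 0.0673) was left out. The same held for replicates 1 (-2.27, adjusted p = 0.0641) and 3 (-2.05, adjusted p = 0.0923) of wild type with E. coli. The dorsal call was lost when dorsal mutant replicate 2 (-1.79, adjusted p = 0.0843) or replicate 3 of wild type with E. coli (-2.02, adjusted p = 0.111) was left out, and after the same averaging of arrays (-2.08, adjusted p = 0.119).

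Mtk, an antifungal peptide gene, fell in the Relish mutant. Its signals there were 134.1, 202.8 and 93.2, and none overlapped with any other group. In wild type they were 750.6, 336.0 and 1128.1 after PBS and 7573.6, 3347.4 and 4492.8 after E. coli. The Dif mutant read 1309.1, 4195.3 and 994.5, and its replicate 2 lay inside the wild type E. coli range. The dorsal mutant read 3199.4, 469.1 and 1678.8, just below that range at its highest. The difference was -4.49 in the Relish mutant (SE 0.58, adjusted p = 1.97e-04). It was -1.41 in the Dif mutant (adjusted p = 0.234) and -1.75 in the dorsal mutant (adjusted p = 0.122), neither of them called. The log2 difference between bacteria and PBS in wild type was 2.72 (adjusted p = 0.0805), with mean signal 6.96 times as high. It passed without dorsal mutant replicate 1 (adjusted p = 0.0493) or 2 (adjusted p = 0.0234) and without Dif mutant replicate 2 (adjusted p = 0.0434), which change only the shared spread and leave the difference at 2.72.

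Drs, the Toll target, passed the test in none of the 10 comparisons among the 5 groups. Wild type signals were 8475.3, 9608.5 and 12835.7 after PBS and 21436.0, 17726.6 and 19739.2 after E. coli. The wild type groups did not overlap, and the mean was 1.91 times as high with bacteria. The Dif mutant read 23570.5, 16081.5 and 7637.5, and the dorsal mutant 11300.5, 9301.8 and 17894.5. Both overlapped with each wild type group. The Relish mutant read 11397.1, 3407.9 and 11903.8, below wild type with E. coli on each array. Drs differed by 0.94 with bacteria in wild type (unadjusted p = 0.0394, adjusted p = 1.00). Against wild type with E. coli it differed by -1.33 in the Relish (unadjusted p = 0.00583, adjusted p = 0.140), -0.45 in the Dif (adjusted p = 0.644) and -0.66 in the dorsal mutant (adjusted p = 0.491). The 95% interval for Dif ran from -1.35 to 0.44. It holds both no change and a loss as large as the wild type rise of 0.94, so these cannot be told apart for Drs.

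Listericin had its highest mean in the dorsal mutant, unlike the other 6 genes, and fell in the Relish mutant. Wild type signals were 1666.8, 3420.2 and 3409.0 after PBS and 11222.4, 5265.8 and 8186.3 after E. coli. The dorsal mutant gave 8194.4, 8252.5 and 22482.9. Its lowest array exceeded the wild type E. coli median, and the log2 difference of 0.55 (SE 0.45, adjusted p = 0.616) was not called. The Dif mutant read 4820.7, 2608.9 and 4862.1, all below wild type with E. coli, at -0.98 (adjusted p = 0.304). The Relish mutant read 1003.3, 283.7 and 961.9, below every wild type PBS array. The Relish difference of -3.42 (SE 0.45, adjusted p = 2.61e-04) was called, also without each array in turn. In wild type the difference between bacteria and PBS was 1.52 (SE 0.45, adjusted p = 0.462).

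**Figure D2:**
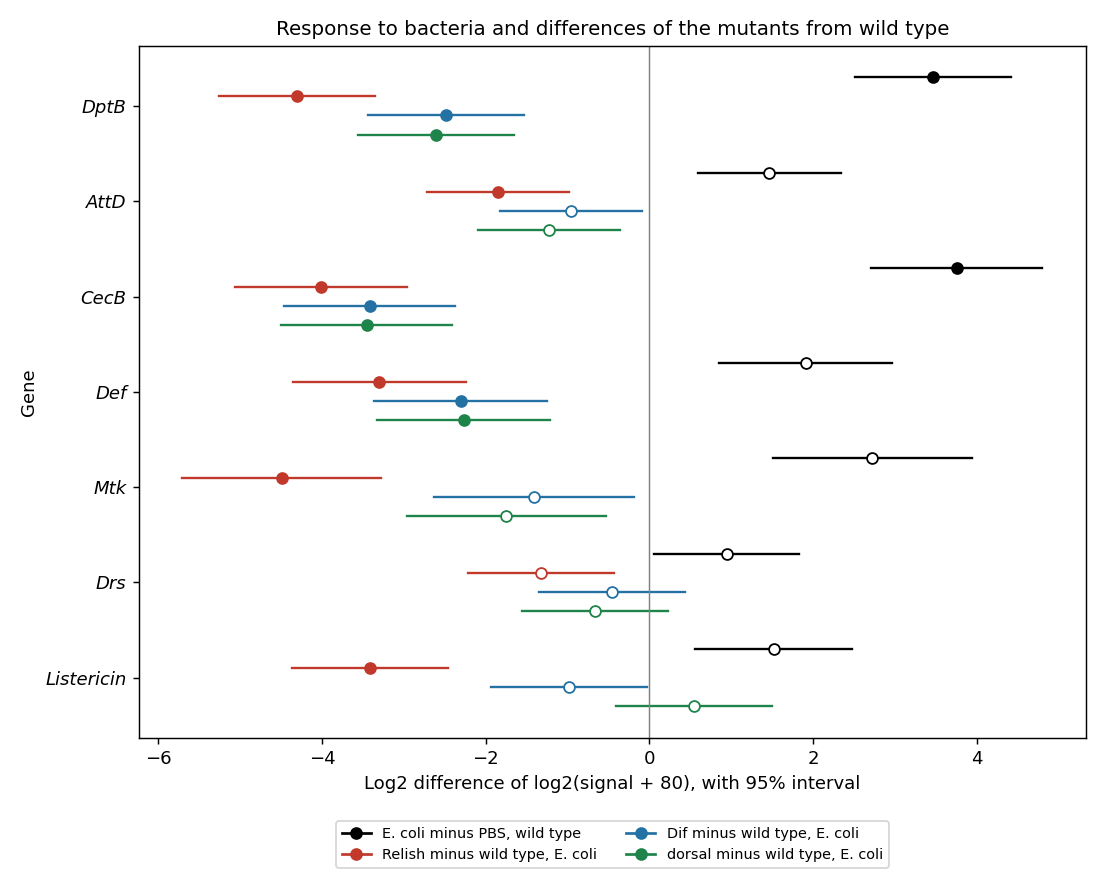
Log2 differences (on log2(signal + 80)) of the 7 genes for E. coli minus PBS in wild type and for each mutant minus wild type with E. coli. Lines are 95% intervals from the limma fit, not adjusted for the number of probe sets, and filled points passed at an adjusted p under 0.05. The black points lie above 0 for all 7 genes and the red Relish points below 0 for all 7, whereas the green dorsal point of Listericin lies at 0.55.

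Set side by side, all 7 differences between bacteria and PBS in wild type were above 0. DptB and CecB were called higher, 2 of 7, where 0.149% of all probe sets were called higher. Every E. coli array exceeded every PBS array for 7 of 7 genes, where 6.39% of probe sets showed this. The median log2 difference was 1.91 over the 7 and 0.00095 over all probe sets tested. The genes ranged from 0.94 for Drs to 3.76 for CecB. The members were chosen with earlier results known, so counts set against all probe sets here and below describe the 7 only. Anp, Drsl5 and Drsl6, also antimicrobial peptide genes, were not called between E. coli and PBS in wild type (0.52, 0.37 and -0.15). Their arrays overlapped between these groups.

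In the Relish mutant 6 of 7 genes were called lower than in wild type with bacteria, where 1.14% of probe sets were, and Drs was the exception. In the Dif mutant 3 of 7 were called lower, where 1.54% of probe sets were, and in the dorsal mutant 3 of 7, where 1.88% were. In both, the 3 were DptB, CecB and Def. All arrays were lower than wild type with E. coli for 7 of 7 genes in the Relish mutant (7.71% of all probe sets), for 5 of 7 in the Dif mutant (8.05%) and for 5 of 7 in the dorsal mutant (8.45%). Medians over the 7 genes were -3.42, -1.41 and -1.75, and over all probe sets 0.086, 0.11 and 0.10. These 4 comparisons share the wild type E. coli arrays, whose replicate 1 was the highest of its group for 6 of the 7 genes.

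Whether the mutants differ from one another was tested directly, in 3 comparisons that do not use wild type arrays as a reference. Mtk was lower in the Relish than in the Dif mutant, at -3.08 (SE 0.58, adjusted p = 0.0116), and lower than in the dorsal mutant, at -2.75 (SE 0.58, adjusted p = 0.0163). Listericin was lower as well, at -2.44 (SE 0.45, adjusted p = 0.0111) against Dif and -3.96 (SE 0.45, adjusted p = 1.23e-04) against dorsal. These are 2 of 7 genes in each comparison, where 0.49% and 1.48% of probe sets were called lower. Every Relish array lay below every array of the other mutant for 4 of 7 genes in each comparison, DptB, Def, Mtk and Listericin, as for 8.96% of probe sets against Dif and 10.7% against dorsal. The difference of Listericin from dorsal held without each array. The difference of Listericin from Dif was lost without Relish mutant replicate 2 (-1.92, adjusted p = 0.0597). Those of Mtk were lost without Relish mutant replicate 1 (-3.07, adjusted p = 0.0508 against Dif, and -2.73, adjusted p = 0.0560 against dorsal), without Dif mutant replicate 2 (-2.48, adjusted p = 0.0608) and without dorsal mutant replicate 1 (-2.17, adjusted p = 0.0816), respectively. The Mtk difference from dorsal was also lost with no other groups in the fit (-2.75, adjusted p = 0.0649).

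DptB lay close to the threshold in both comparisons. It differed by -1.82 against Dif (adjusted p = 0.0633) and by -1.70 against dorsal (adjusted p = 0.0510). Against Dif it passed without Dif mutant replicate 1 (-2.34, adjusted p = 0.0123) and without dorsal mutant replicate 1 (adjusted p = 0.0461) or 2 (adjusted p = 0.0447). Against dorsal it passed without dorsal mutant replicate 2 (-2.13, adjusted p = 0.0298), replicate 1 of wild type with E. coli (adjusted p = 0.0468) or Dif mutant replicate 1 (adjusted p = 0.0276) or 2 (adjusted p = 0.0365). For CecB the Relish mutant read -0.60 against Dif and -0.56 against dorsal, with intervals from -1.65 to 0.45 and from -1.61 to 0.49. Between the Dif and dorsal mutants none of the 7 was called by limma, where 5.18% of probe sets were called either way. Listericin came nearest, at -1.53 in Dif against dorsal (SE 0.45, unadjusted p = 0.00354, adjusted p = 0.0597), and it was the only one of the 7 with an unadjusted p under 0.05 there. It was also the only one with every Dif array below every dorsal array, 1 of 7, as for 11.8% of probe sets. Listericin passed there without Relish mutant replicate 2 (adjusted p = 0.0318). The other 6 genes lay between -0.04 and 0.34.

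**Figure D3:**
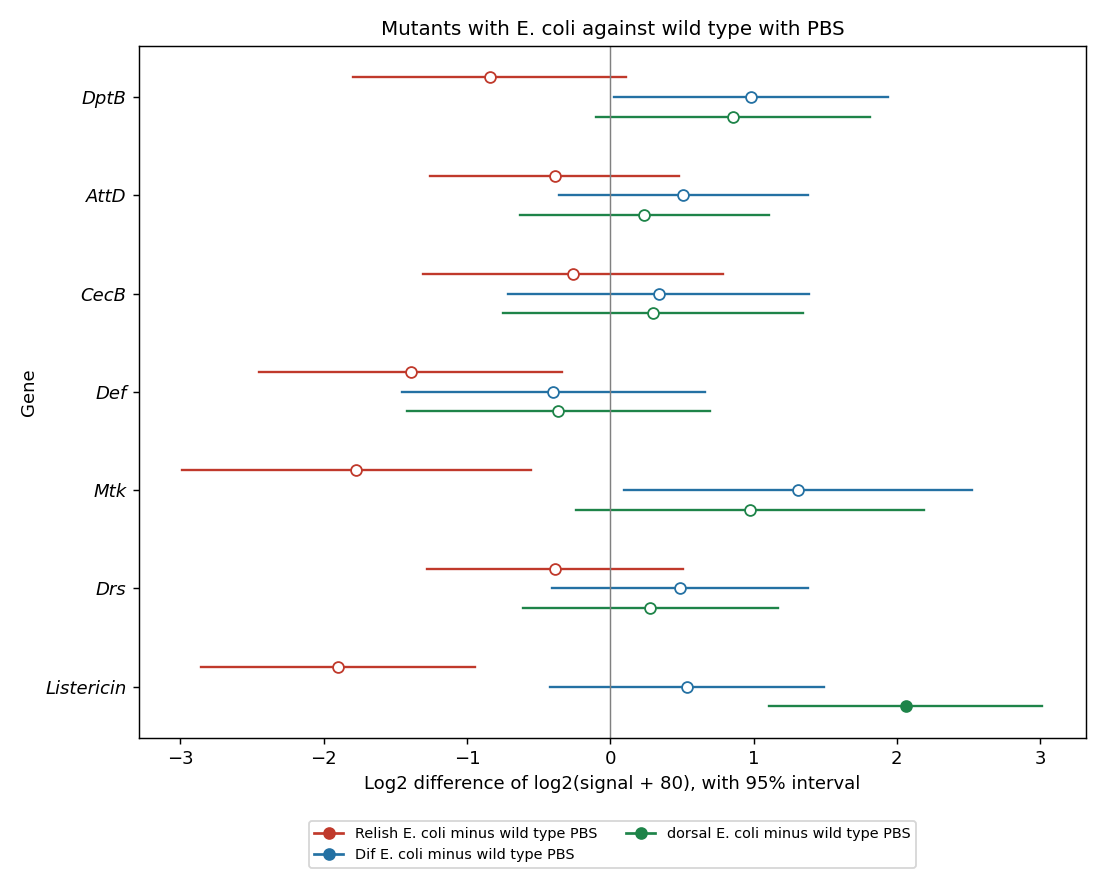
Log2 differences (on log2(signal + 80)) between each mutant with E. coli and wild type with PBS for the 7 genes, with 95% intervals not adjusted for the number of probe sets. Filled points passed at an adjusted p under 0.05. The filled point is Listericin in the dorsal mutant at 2.06, and all 7 red Relish points lie below 0.

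The mutants with bacteria, as the treatment text labels them, were next set against wild type with PBS, to describe what remained of the signal. Mutants with PBS were not analysed, so a remaining response cannot be told apart here from a difference between stocks. In the Relish mutant 7 of 7 genes had a difference below 0 and none was called, where 0.639% of probe sets were called lower. Listericin read -1.90 (SE 0.45, unadjusted p = 5.79e-04, adjusted p = 0.0505), Mtk -1.77 (unadjusted p = 0.00682, adjusted p = 0.175) and Def -1.39 (unadjusted p = 0.0127, adjusted p = 0.219), and these 3 were the ones with an unadjusted p under 0.05. Listericin passed without wild type PBS replicate 1 (-2.23, adjusted p = 0.0409), wild type E. coli replicate 1 (adjusted p = 0.0496), Dif mutant replicate 2 (adjusted p = 0.0486) or dorsal mutant replicate 3 (adjusted p = 0.0178). For 4 of 7 genes, DptB, Def, Mtk and Listericin, every Relish array lay below every PBS array, as did 7.94% of all probe sets. AttD, CecB and Drs read -0.39, -0.26 and -0.39 and overlapped with PBS.

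In the Dif mutant none of the 7 was called against wild type with PBS, where 2.14% of probe sets were called either way. All 7 overlapped with PBS, whereas every Dif array was higher for 16% of probe sets and lower for 9.03%. The largest differences were 1.31 for Mtk (SE 0.58, unadjusted p = 0.0361, adjusted p = 0.240) and 0.98 for DptB (SE 0.45, unadjusted p = 0.0441, adjusted p = 0.262), the 2 genes with an unadjusted p under 0.05. Def read -0.40. The intervals reached 1.94 for DptB, 1.38 for CecB and 0.66 for Def, under the wild type rises of 3.47, 3.76 and 1.91. The margin was narrower for AttD (1.38 against 1.47), Listericin (1.49 against 1.52) and Mtk (2.53 against 2.72). For Drs the interval reached above the rise (1.38 against 0.94). The rises have errors of their own and share the PBS arrays, so these pairs of values are no test.

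In the dorsal mutant Listericin was called higher than in wild type with PBS, at 2.06 (SE 0.45, adjusted p = 0.0181), 1 of 7 genes, where 1.23% of probe sets were called higher. Its 3 arrays lay above the 3 PBS arrays, 1 of 7 genes, as for 14.5% of probe sets. Mean signal was 4.58 times as high. The call was lost without dorsal mutant replicate 3, the array at 22482.9 (1.58, adjusted p = 0.0843), and without wild type PBS replicate 1 (1.73, adjusted p = 0.0759). It was lost as well after averaging arrays with the same title number (2.47, adjusted p = 0.103) and without the variance trend (2.06, adjusted p = 0.0536). The other 6 genes overlapped with PBS, from -0.36 for Def to 0.97 for Mtk.

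On the signal scale the same question can be put as a share, with the wild type PBS mean as 0% and the wild type E. coli mean as 100%. These shares are descriptions with no test, and their errors leave out the spread of the wild type arrays. The Relish mutant means lay below 0% for all 7 genes, from -38.6% ± 7.5 for Listericin to -1.45% ± 2.32 for CecB. In the Dif mutant CecB stood at 2.91% ± 7.03, DptB at 11.6% ± 13.1, AttD at 21.8% ± 12.6, Listericin at 23.5% ± 23.9 and Mtk at 32.5% ± 40.1 of the rise. Drs stood at 58.5% ± 85.5 there and Def at -14.3% ± 7.3. In the dorsal mutant CecB stood at 2.14% ± 4.78, DptB at 9.22% ± 10.8, AttD at 12.2% ± 24.6, Mtk at 23.7% ± 31.1, Drs at 27.1% ± 48.2 and Def at -10.6% ± 17.8. Listericin averaged 188% ± 153 in the dorsal mutant, from arrays at 99.4%, 100.5% and 364%, so that replicate 3 alone lay far above 100%. Without that array the Listericin share was 99.97%. In the dorsal mutant the error passed the share for all genes except Listericin, and in the Dif mutant for all except AttD and Def.

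**Figure D4:**
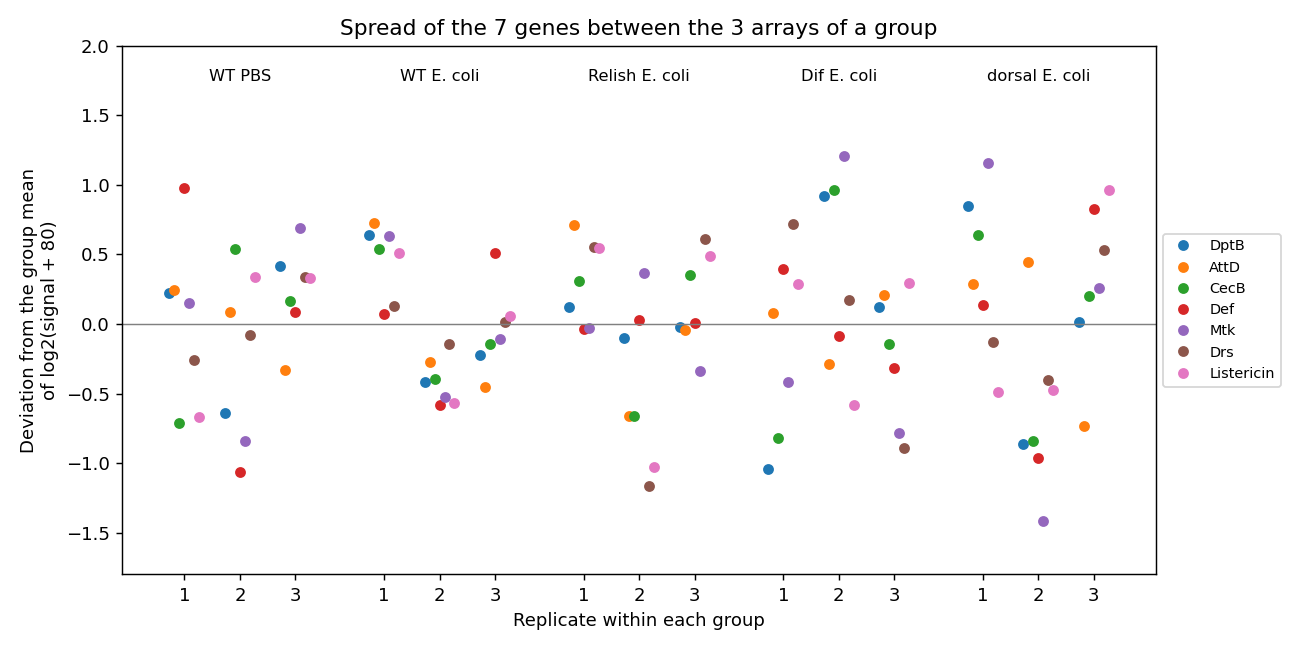
Deviation of each of the 7 genes from its group mean of log2(signal + 80), for replicates 1, 2 and 3 of each group. Each colour is a gene. Points of dorsal mutant replicate 2 lie below 0 for 6 of 7 genes, and DptB, CecB and Mtk stand highest together on Dif mutant replicate 2.

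Several genes shared their highest or lowest array within a group. Within groups they were noisier than the typical probe set: the residual standard deviation on the log2 scale was 0.54 for AttD to 0.88 for Mtk, against a median of 0.48 over all probe sets. Dorsal mutant replicate 2 was the lowest of its group for 5 of 7 genes, with a median deviation of -0.84, and it was also lowest for Rel, at 373.5 against 1186.9 and 1306.5. Replicate 1, which has the same title number, was the lowest for Listericin alone. Dif mutant replicate 2 held the highest DptB, CecB and Mtk of its group, while Rel there was 1191.2 against 1091.5 and 1272.7. PGRP-SB1, a peptidoglycan amidase gene of the Imd response, was high on the same array, at 4237.2 against 172.6 and 392.6. Wild type E. coli replicate 2 was the lowest of its group for 6 of 7 genes, and Relish mutant replicate 2 for 5 of 7. Across all probe sets the median deviation of each array was between -0.041 and 0.068, so the bulk of the scaled signals did not shift by a like amount. Trimmed means were nearly equal on all arrays (800.2 to 800.25), which by itself tends to keep such medians small. Whether array quality had a part was not tested. The p-values rest on the spread between the arrays of a group, which may be partly technical. Arrays with the same title number may share a culture or extract, so this need not be a spread between separate pools.

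Ordered by mean level, 5 genes (DptB, AttD, CecB, Mtk and Drs) gave one sequence of groups: wild type E. coli, Dif mutant, dorsal mutant, wild type PBS, Relish mutant. A step between neighbouring groups in it passed the threshold on the adjusted p only for DptB and CecB, and only from wild type E. coli to the Dif mutant. Def differed by placing wild type PBS above the dorsal and Dif mutants, and Listericin by placing the dorsal mutant on top. No neighbouring step passed for these 2 genes.

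Likeness of pattern was measured as the root mean square difference between centred group means of log2(signal + 80) over the 5 groups. Among the members AttD and Drs were the closest pair at 0.21, followed by DptB and CecB at 0.47 and DptB and Mtk at 0.50. Listericin was nearest to Mtk, at 0.78. Of 10200 other named probe sets, the closest to Mtk was Rel (0.41), followed by CG6142 (0.62) and Ddc, the dopa decarboxylase gene (0.64). Rel is itself the gene mutated in the Relish group, where its mean was 19.2, so its pattern is not independent of the grouping. The closest to DptB were Ddc (0.34), ple, the tyrosine hydroxylase gene (0.52), and CG6142 (0.61). The closest to CecB were CG14567 (0.25), ple (0.37) and Ddc (0.55). CG14567 read 8255.3, 5441.9 and 6031.4 after E. coli in wild type, and at most 1068.4 on any other array. Both ple and Ddc are also on the list of wound response genes. Def was nearest to CG14762 (0.32), Mdr49 (0.32) and CG6429 (0.38). Listericin was nearest to CG14275 (0.64), CG6142 (0.67) and CG4716 (0.74). The nearest genes to the remaining members were CG34165 (0.13), grim, a cell death gene (0.16), and GAPcenA (0.20) for AttD, and CG31676 (0.07), CG17803 (0.10) and grim (0.10) for Drs. The measure is not scaled to the range of a gene, so profiles with small differences, such as those of AttD and Drs, tend to give small distances. Group means of grim (38.6 to 244) and CG17803 (55.2 to 216) lay partly below the pseudocount of 80.

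Of 19 other antimicrobial peptide genes listed, 3 had a probe set with a single symbol, and none of these was called with bacteria in wild type. Drsl5, a relative of drosomycin, read 667.6, 889.0 and 2861.9 in the Dif mutant, above all 12 other arrays, the highest of which read 337.6. It rose by 2.08 against wild type with E. coli (SE 0.50, adjusted p = 0.0325), while Drs itself did not pass there. The other 2 were called in none of the 10 comparisons. Of 25 Imd pathway symbols listed, some of them synonyms, 18 were tested, and Rel was the 1 called higher with bacteria, at 2.23. In the Relish mutant Rel and PGRP-SB1 were called lower, at -5.26 and -6.23, and PGRP-SC2, another amidase gene, higher, at 2.18. In the Dif mutant Rel (-1.59) and PGRP-SB1 (-3.84) were called lower. In the dorsal mutant Rel (-2.03) and PGRP-SB1 (-3.80) were called lower, and PGRP-SC2 (1.72) and 1 further gene higher. Rel was thus below wild type with E. coli in the Dif mutant (1091.5 to 1272.7) and the dorsal mutant (373.5 to 1306.5). Against wild type with PBS (663.6 to 807.0) all Dif mutant arrays were higher and the dorsal mutant arrays overlapped, and neither difference was called (0.64, adjusted p = 0.341, and 0.20, adjusted p = 0.841). Of 19 Toll pathway genes listed 14 were tested, with none called with bacteria, Tl (-1.47) and the protease gene SPE (-1.15) lower in the Relish mutant, and SPE lower in the Dif (-1.22) and dorsal (-1.19) mutants.

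The 7 genes lie on 3 chromosome arms in the RefSeq table of Release 6, with 4 on 2R, 2 on 3R and 1 on 3L. DptB stands beside DptA there, and CecB between CecA2 and CecC. These neighbours have no probe set of their own single symbol here and were not analysed. Of the 28 genes that flank the members, 2 on each side, 14 were tested, and none was called in the 4 main comparisons (lowest adjusted p = 0.131).

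Marker genes of other tissues and of handling also differed in level between groups. Listed fat body markers (4 of 7 on the array) summed to 135122 to 188236 units with PBS, 159166 to 196168 with E. coli in wild type, 172479 to 306099 in the Relish, 162630 to 318238 in the Dif and 248622 to 366610 in the dorsal mutant. None of these 4 was called between a mutant and wild type with E. coli. The fat body is the tissue that makes most of these peptides. Heat shock genes (3 of 8 on the array) summed to 23045 to 131866 in the Dif mutant against 3081 to 4834 in wild type with E. coli and 5278 to 17494 in the dorsal mutant. Salivary gland and stage genes (7 of 8 on the array) summed to 62060 to 177479 with PBS, 5694 to 234386 with E. coli in wild type, 2790 to 399576 in the Relish, 44081 to 374945 in the Dif and 292375 to 571738 in the dorsal mutant. The sums overlapped between groups, except that the dorsal mutant lay wholly above both wild type groups. The 1 gene of this list called between each mutant and wild type with E. coli was the glue gene Sgs4, named after its values were seen, at 6.22, 6.21 and 8.35 in the Relish, Dif and dorsal mutants. Crystal cell markers (3 of 3 on the array) summed to 23811 to 29160 in the Relish mutant and 4298 to 10758 elsewhere. Wound response genes (6 of 6 on the array) summed to 12016 to 19650 in wild type with E. coli and 2264 to 4991 in the other groups, except for dorsal mutant replicate 3 at 12271, which lay inside the range of wild type with E. coli. Without ple and Ddc the other 4 wound genes summed to 2837 to 4431 in wild type with E. coli and to 1134 to 2828 elsewhere. Hemocyte markers (9 of 10 on the array) summed to 14608 to 22753 with PBS, 11477 to 21293 with E. coli in wild type, 15216 to 24226 in the Relish, 15506 to 22468 in the Dif and 12381 to 14178 in the dorsal mutant. The dorsal mutant lay wholly below PBS, and 2 of the 9 hemocyte markers were called higher there than in wild type with E. coli. Midgut markers (5 of 7 on the array) summed to 71237 to 234653 with PBS, 106936 to 247804 with E. coli in wild type, 237260 to 302938 in the Relish, 226747 to 291632 in the Dif and 247308 to 302575 in the dorsal mutant, with none called between a mutant and wild type with E. coli. No value of the table was at 0. The part of these differences in the results above was not tested.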

How the data were processed

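Each array was deposited as a table of linear intensities, with a single signal for each probe set. They were computed in Microarray Suite 5.0, per the labels, and the submitters' processing notes also name MAS5. Trimmed mean signals were 800.2 to 800.25 and medians 245.5 to 340.5 on the 15 arrays. Detection calls were not used here, so the number of arrays limits the precision and low signals are not classed as detected or not. Gene names came from the platform annotation (12443 non-control probe sets with 1 symbol, 327 with several, 1196 unnamed), with symbols looked up by Entrez identifier in RefSeq's Release 6 table (12394 found, 0 changed). The array's build is not given in the sources used here.

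Signals were analysed as log2(signal + 80), which understates changes of low signals. The 44 controls were left out, and a probe set was tested at 160 or more on at least 3 arrays (11427 kept). The fit used limma 3.58.1 in R 4.3.3 on the 5 groups together (lmFit, then eBayes with trend), with 10 residual degrees of freedom. Tests were two-sided with Benjamini-Hochberg adjustment over all tested probe sets, and the code was tested on simulated data. Groups followed source names and treatment text. Alternatives were another pseudocount, filter, normalization, trend, array weights, sample sets, averaging of arrays with the same title number, a replicate block, and leaving out each array.

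The 7 members and all lists were chosen with earlier results of these data known. The naming rule took the members, Rel, Dif and dl, the 3 genes most like each member, and the called genes of each pathway list, at most 3 of largest difference in each of the 4 main comparisons. Genes of marker lists and genes shown for a single array were named after their values were seen. Arrays of 1 group with the same title number (wild type PBS replicates 2 and 3, wild type E. coli replicates 2 and 3, dorsal mutant replicates 1 and 2) may share a culture or extract. They were the most alike pair of their group over log2 signals, by a wide margin in the dorsal mutant (r = 0.932 against 0.884 and 0.881). In wild type the margin over the next pair was slight. It was 0.9396 against 0.9391 and 0.9249 with PBS, and 0.9292 against 0.9287 and 0.9058 with E. coli. These pairs shared at most 0.036% of identical values, and the labels do not say that the pools were separate cultures. The replicate numbers were not used to pair the arrays in the main fit.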

Additional observations from a re-analysis of the deposited data

Results flagged for a closer look

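A pair of genes differed between mutants when the difference itself was tested. Mtk was lower in the Relish than in the Dif mutant by a log2 difference of -3.08 (limma adjusted p = 0.0116) and than in the dorsal mutant by -2.75 (adjusted p = 0.0163). Listericin was lower in the Relish than in the Dif mutant, at -2.44 (adjusted p = 0.0111), and than in the dorsal mutant, at -3.96 (adjusted p = 1.23e-04). The arrays of the groups compared did not overlap in any of these 4 cases. The dependence of each gene on stock background was not tested.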

How the results depend on the processing

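No call of a peptide gene changed direction. Under the 10 settings other than leaving out single arrays, 681 of the 700 values of single genes kept their direction and side of the threshold. Of the rest, 6 lost a call, 10 gained a call and 3 uncalled values changed sign. The last were Def in Dif against dorsal (0.15 with array weights), CecB in Dif against dorsal (-0.014) and AttD in dorsal against wild type PBS (-0.0068), the latter 2 after averaging arrays that share a title number. With that averaging AttD in Relish (adjusted p = 0.0670), Def in dorsal (0.119) and Listericin in dorsal against PBS (0.103) were no longer called, the averaging leaving fewer arrays. Array weights gave 4 members called for bacteria in wild type. Fitting no other groups than those compared gave 1 for Relish against dorsal, where Mtk missed (adjusted p = 0.0649), and AttD in Relish missed too (0.0599), while Mtk in wild type passed (0.0180). Dif against dorsal had 1 member called, Listericin, with the pseudocount doubled (adjusted p = 0.0487) and with the replicate block (0.0268). Relish against wild type PBS had 1, Listericin again, with the pseudocount halved (0.0495), array weights (0.0121) and the replicate block (0.0184). Dorsal against wild type PBS had 0 without the variance trend (Listericin, 0.0536) and 0 with the averaging. The cause was not tested. DptB passed for Relish against Dif with the averaging (0.0438) and for Relish against dorsal under the stricter filter (0.0497), and Def passed in wild type with array weights (0.0476).

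Deviations of same-numbered arrays correlated at -0.11 to 0.34 (median 0.027), and of other arrays at -0.27 to 0.19 (median -0.0030). The correlation was over 0.1 for 7 of 30 same-numbered pairs and for 6 of 60 other pairs. These values do not decide whether arrays with the same replicate number shared a step. Quantile normalization brought the median of all probe sets against wild type E. coli from 0.086, 0.11 and 0.10 (Relish, Dif, dorsal) to 0.010, 0.0066 and 0.011 and put the Def share of the Relish mutant at -31.3%. It also put AttD at -16.0%, 13.3% and 6.66% (Relish, Dif, dorsal), CecB at -2.65%, 1.62% and 0.85% and Drs in Relish at -6.53%.

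Leaving out 1 array at a time gave 5 to 6 members called for Relish, 2 to 3 for Dif, 2 to 3 for dorsal and 2 to 3 for bacteria in wild type. It gave 1 to 3 for Relish against Dif and against dorsal, 0 to 1 for Dif against dorsal, and against PBS 0 to 1 for Relish, 0 to 0 for Dif and 0 to 1 for dorsal. Over all probe sets the same omissions called 116 to 292 for Relish, 153 to 409 for Dif and 145 to 432 for dorsal. They called 10 to 28 for bacteria in wild type. Between mutants they called 61 to 196 for Relish against Dif and 113 to 376 for Relish against dorsal. For Dif against dorsal they called 230 to 607. Against PBS they called 74 to 187 for Relish, 90 to 407 for Dif and 121 to 354 for dorsal. Shares of the rise that moved by over 1 SD were -6.64% to -3.22% for DptB, -19.0% to -8.70% for Mtk, -47.0% to -12.3% for Def and -55.4% to -30.3% for Listericin in Relish, and 16.5% to 37.1% for AttD and -30.7% to 0.21% for Def in Dif. Within their larger SDs the other shares moved as widely: in Relish AttD -20.7% to -0.93%, CecB -3.25% to 0.061% and Drs -31.1% to 14.4%, in Dif CecB -1.03% to 5.71%, DptB 4.80% to 17.9%, Drs 16.6% to 102%, Listericin 14.2% to 37.3% and Mtk 9.40% to 45.8%, and in dorsal AttD 3.08% to 26.2%, CecB -0.092% to 4.66%, Def -26.4% to 3.48%, DptB 3.44% to 14.1%, Drs -0.057% to 46.0%, Listericin 99.97% to 260.5% and Mtk 7.63% to 38.7%. Uncalled values that crossed 0 were, in Dif against dorsal, AttD (-0.097 to 0.49), CecB (-0.45 to 0.45), Def (-0.52 to 0.38), DptB (-0.33 to 0.65), Drs (-0.15 to 0.65) and Mtk (-0.37 to 0.92). Against PBS they were CecB in Dif (-0.15 to 0.75), dorsal (-0.054 to 0.72) and Relish (-0.62 to 0.069), Def in Dif (-0.93 to 0.093) and dorsal (-0.89 to 0.13), and Drs in Relish (-0.69 to 0.20). Over all probe sets, the 10 settings called 12 to 58 for bacteria in wild type (18 as reported), 94 to 293 for Relish (215), 110 to 381 for Dif (306) and 71 to 674 for dorsal (402). Between mutants they called 67 to 158 for Relish against Dif (131), 71 to 405 for Relish against dorsal (348) and 152 to 732 for Dif against dorsal (592). Against PBS they called 45 to 224 for Relish (130), 69 to 499 for Dif (245) and 28 to 645 for dorsal (339).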
